A study of Homo sapiens with 46 samples.

Results

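ND5 is the largest of the complex I subunits that mitochondrial DNA (mtDNA) encodes, and it forms the distal end of the proton-pumping membrane arm of the enzyme. Complex I oxidizes NADH from the tricarboxylic acid cycle, passes the electrons to ubiquinone and pumps protons across the inner mitochondrial membrane. The ND5 message is read by mitochondrial ribosomes inside the organelle, whereas most other complex I subunits are made in the cytosol from nuclear genes and then imported. HEK293T cells, a human embryonic kidney line in which the study used the HEK293-Flp-In T-Rex derivative, can live on glycolysis, and the study grew them in a medium with added pyruvate and uridine, which cells with weak respiration need.

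The comparison set 4 libraries of cells treated with the ND5 chimera against 4 libraries of the control, 8 of the 46 libraries in the series, chosen by their sample labels. The chimera links pCox4, a mitochondrial targeting presequence, to an uncharged antisense oligomer of the morpholino type, which is meant to block translation of its target in the matrix. Wild-type cells took it up at 2 µM with EndoPorter, a delivery peptide, over 48 hours. Control cells were given the presequence without morpholino, in buffer of the click reaction, for 48 hours, so the control holds no morpholino of unrelated sequence. By the study's methods the first pair of replicates (1 and 2) belongs to batch 1 and the second pair (3 and 4) to batch 2, made on different days with different reagents. The other 10 treatments, with chimeras against ATP6, ATP8, COX1, COX2, COX3, CYTB, ND1, ND2, ND3 and ND4L, served to ask which differences set ND5 silencing apart.

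The morpholino covers bases 3 to 25 of the MT-ND5 message, at the start of its coding sequence. The target is shown first because every later sequence is compared with it. It lies on the forward strand at chrMT:12339-12361 in GRCh38, inside the single exon of MT-ND5 (chrMT:12337-14148). The letters are those of the GENCODE release 29 transcript, and the capitals mark 8 bases that recur further on.
MT-ND5 target: aaCCATGCACactactataacca

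Polyadenylated RNA was sequenced and reads were counted per gene. The control libraries held between 19944731 and 22664329 counts, and the ND5 libraries between 21383044 and 27301986. Genes of mtDNA took 4.12% to 4.96% of the counts in the control and 4.39% to 5.34% after ND5 silencing. Of the markers of HEK293 cells, NEFL lay between 190 and 217 CPM, the counts of a gene scaled to a common library total, and VIM between 387 and 480 CPM, in all 8 libraries. NEFM (0.891 to 1.59 CPM) and PAX2 (5.64 to 9.22 CPM), also listed as HEK293 markers, were lower. Of the markers of other cell types, ALB did not exceed 0.284 CPM, and PTPRC, the leukocyte antigen, reached at most 9 counts in a library. COL1A1, listed for fibroblasts, was not low, at 22.7 to 30.8 CPM. No marker passed the test, by edgeR at an unadjusted p under 0.05 (0 of 11 tested) or by DESeq2.

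ND5 silencing altered few transcripts. Of 20272 genes tested, 32 passed an adjusted p of 0.05 (edgeR quasi-likelihood test with the batch as a term, Benjamini-Hochberg adjustment), or 0.158% of them. Of these, 15 were higher (0.074% of the genes tested) and 17 were lower (0.0839%). The median of their absolute log2 fold changes was 0.39, and 9 genes changed by more than 0.5 on that scale. All 32 differed in the same direction in both batches, and 30 had an unadjusted p under 0.05 within each batch alone. The fit that chose them pools both batches, so this is not a separate repeat. After adjustment, 12 of them were called in batch 1 alone, 5 in batch 2 alone and 3 in both. With the replicate number as a block in place of the batch, the count was 53 (29 higher and 24 lower), with all 32 among them. Without a batch term it was 11, all of them among the 32. The count was 74 with only the libraries compared, 102 with DESeq2 and 118 with no filter on low counts. In 29 of the 32 genes the ND5 libraries did not overlap the control libraries. The test that chose these genes used the same libraries, so their separation is not further support. Over all genes tested, 1.77% had every ND5 library above every control library and 1.79% had every ND5 library below. Counts of calls moved with single libraries. There were 21 without control replicate 3 (9 higher) and 18 without control replicate 4 (7 higher). Without ND5 replicate 2 there were 22, of which 6 were higher, and without ND5 replicate 1 there were 42.

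The targeted message comes first because it bears on the labels, although a block of translation need not lower the RNA. MT-ND5 stood at 2301, 2566, 2940 and 2336 CPM in control replicates 1 to 4, and at 2055, 2327, 2533 and 1994 CPM in the ND5 replicates. Within each batch, each ND5 library lay below the mean of the 2 control libraries, but the groups overlapped. Its log2 fold change was -0.19 (SE 0.0828), which did not pass the test (adjusted p = 0.458, edgeR). In the other 10 treatments, which share the control libraries, the same message ranged from -0.22 after ND2 silencing to 0.30 after COX2 silencing. Against the mean of those treatments MT-ND5 was lower by 0.24 on the log2 scale (log2 fold change -0.24, SE 0.0629, adjusted p = 0.0489, edgeR). The RNA level of the target does not by itself check the label of these libraries.

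Among the 13 mRNAs of mtDNA, MT-ND6 fell. MT-ND6 encodes another complex I subunit, and its gene is the only protein-coding gene of the light strand. It stood at 518, 547, 564 and 552 CPM in the control and at 325, 434, 452 and 415 CPM after ND5 silencing. Every ND5 library lay below every control library, and replicate 1 was the lowest. The log2 fold change was -0.42 (SE 0.0704, adjusted p = 0.000326, edgeR), to 74.5% of the control, with -0.49 in batch 1 and -0.37 in batch 2. MT-ND6 (chrMT:14149-14673, reverse strand) directly adjoins MT-ND5 on the opposite strand, and the MT-ND5 message is known to run on into that stretch as an untranslated tail. Whether the counting used strand is not given in the sources used here, so reads of MT-ND6 and of the MT-ND5 tail cannot be told apart.

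The remaining 12 mRNAs did not pass the test. MT-ND3 had the highest log2 fold change, at 0.29 (SE 0.125, adjusted p = 0.439), and MT-CYB, the mtDNA-encoded subunit of complex III, was at 0.18 (SE 0.0612, adjusted p = 0.265). MT-CO1, the catalytic core of complex IV, was at 0.12 and MT-ATP6, the proton channel of ATP synthase, was at 0.00. The median over all 13 was 0.09, beside 0.00 over all genes tested, and it was 0.13 in batch 1 and -0.03 in batch 2. Both ribosomal RNAs of the mitochondrial ribosome had positive values that missed the threshold. MT-RNR1 stood at 658, 664, 680 and 607 CPM in the control and at 725, 861, 816 and 681 CPM after ND5 silencing, which do not overlap, with a log2 fold change of 0.24 (SE 0.0624, adjusted p = 0.102). MT-RNR2 was at 0.22 (SE 0.0628, adjusted p = 0.161). By DESeq2, run as an alternative, MT-RNR1 passed and MT-RNR2 did not.

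**Figure D1:**
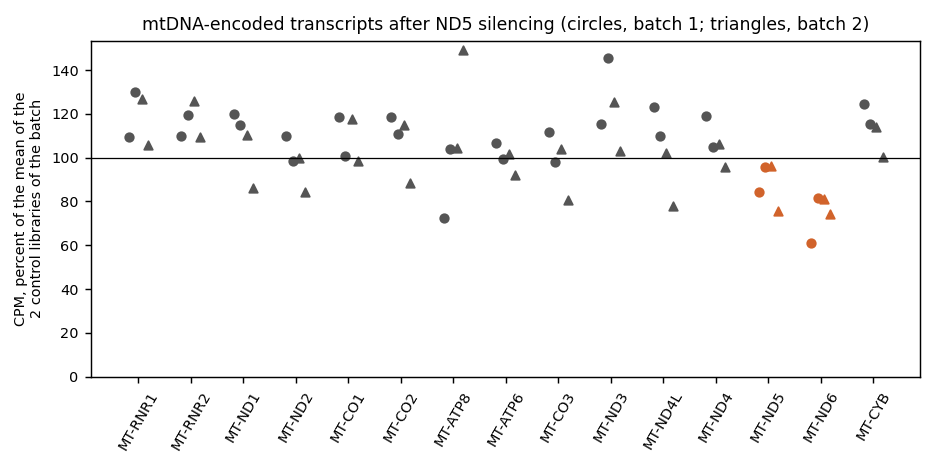
CPM of each mtDNA-encoded transcript in the 4 ND5 libraries as a percentage of the mean of the 2 control libraries of the same batch, with genes in the order of the mtDNA map. MT-ND6 is below 100 in all 4 libraries, as is MT-ND5, and no other transcript is below 100 in all 4.

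A nuclear copy of mtDNA was called higher. MTCO1P12 is an unprocessed pseudogene on chromosome 1 (chr1:631074-632616) that resembles MT-CO1. It had 26.8, 24.5, 25.9 and 28.3 CPM in the control and 37.7, 55.3, 49.1 and 41.8 CPM after ND5 silencing, without overlap. The log2 fold change was 0.80 (SE 0.124, adjusted p = 8.59e-05, edgeR), a 1.74-fold higher level. Reads of the pseudogene and of MT-CO1 could be split by the counting, so the value is uncertain. After COX1 silencing the same gene was at -0.85, and after CYTB silencing at 0.75, against the shared control.

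Among the called genes the largest fall was that of PHYH, the peroxisomal phytanoyl-CoA hydroxylase that opens the breakdown of the branched fatty acid phytanic acid. It had 24.0, 24.9, 22.1 and 23.6 CPM in the control and 11.7, 10.0, 14.2 and 16.4 CPM after ND5 silencing. The groups were well apart, and both batch 1 libraries were lower than both of batch 2. Its log2 fold change was -0.85 (SE 0.0918, adjusted p = 2.51e-08, edgeR), or 55.3% of the control, with -1.16 in batch 1 and -0.58 in batch 2. In the other 10 treatments PHYH lay between 0.02 and 0.18 against the shared control.

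Other lower genes with metabolic or transport roles included PRDX3, the thioredoxin-dependent peroxidase of the mitochondrial matrix. PRDX3 stood at 437, 432, 398 and 405 CPM in the control and at 338, 305, 348 and 326 CPM after ND5 silencing, without overlap, and fell to 78.8% (log2 fold change -0.34, SE 0.053, adjusted p = 8.59e-05, edgeR). RDH10, a retinol dehydrogenase of the retinoic acid pathway, had 46.7, 50.7, 38.0 and 42.9 CPM in the control and 34.6, 35.1, 30.9 and 30.8 CPM after ND5 silencing. Its log2 fold change was -0.44 (SE 0.0588, adjusted p = 3.48e-06). The SLC39A9 transcript, which encodes a zinc transporter of the ZIP family, changed least firmly, with 99.9, 98.5, 91.2 and 93.3 CPM against 87.4, 86.5, 85.5 and 75.2 CPM (log2 fold change -0.19, SE 0.0453, adjusted p = 0.0468).

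TXNIP and ARRDC4 are paralogous alpha-arrestins, transcribed when glucose metabolites accumulate, and TXNIP restrains glucose uptake. Both fell. TXNIP had 35.1, 33.1, 46.2 and 41.9 CPM in the control and 21.7, 19.0, 30.1 and 25.2 CPM after ND5 silencing, with a log2 fold change of -0.70 (SE 0.0781, adjusted p = 3.27e-08, edgeR). In ARRDC4, values of 59.2, 62.8, 65.0 and 68.7 CPM stood against 46.6, 41.9, 50.1 and 42.3 CPM (log2 fold change -0.50, SE 0.0635, adjusted p = 1.01e-06). Neither pair of groups overlapped, and the fall was of similar size in both batches, with -0.74 and -0.67 for TXNIP and -0.46 and -0.53 for ARRDC4. The other 10 treatments ranged from -0.78 to -0.42 for TXNIP and from -0.55 to -0.26 for ARRDC4 against the shared control, and neither gene differed from the mean of those treatments by the test (adjusted p = 0.184 and 0.27, edgeR).

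GPR180, a membrane protein related to G protein-coupled receptors, and ASAP1, a GTPase-activating protein for Arf that acts on membrane traffic and the actin cytoskeleton, were also lower. GPR180 stood at 32.4, 34.3, 31.3 and 32.9 CPM in the control and at 19.2, 18.1, 22.2 and 23.3 CPM after ND5 silencing (log2 fold change -0.65, SE 0.0834, adjusted p = 1.01e-06, edgeR). ASAP1 had 77.6, 81.7, 88.7 and 86.2 CPM against 64.0, 58.8, 64.4 and 64.5 CPM (log2 fold change -0.41, SE 0.0579, adjusted p = 1.18e-05). In both genes the lowest control library lay above the highest ND5 library.

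Several lower genes act in chromatin and transcription. JMJD1C, a JmjC-domain protein of the histone demethylase family, had 105, 113, 113 and 104 CPM in the control and 72.6, 64.8, 75.2 and 78.1 CPM after ND5 silencing (log2 fold change -0.58, SE 0.0737, adjusted p = 1.01e-06, edgeR). MED31, a subunit of Mediator, fell to 69.0% of the control and was at 6.80 to 9.86 CPM after ND5 silencing against 10.1 to 13.1 CPM (log2 fold change -0.53, SE 0.102, adjusted p = 0.00368). MSX2, a homeobox repressor, had 53.3, 53.1, 54.4 and 51.7 CPM against 45.4, 45.9, 37.5 and 37.4 CPM, with a deeper fall in batch 2 (-0.50) than in batch 1 (-0.22), a difference that was not tested. HOXB9, also a homeobox gene, lay at 58.2 to 70.9 CPM against 75.8 to 82.0 CPM (log2 fold change -0.26, adjusted p = 0.0198). BRD2, a bromodomain reader of acetylated histones, changed by -0.19 on the log2 scale, from 619 to 633 CPM in the control to 509 to 586 CPM (adjusted p = 0.0186). None of these 5 genes had overlapping groups.

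The 3 remaining lower genes were PCNA, NPTX2 and AC015813.6. PCNA, the sliding clamp of DNA replication, stood at 392, 399, 379 and 381 CPM in the control and at 336, 333, 336 and 334 CPM after ND5 silencing, to 86.4% (log2 fold change -0.21, SE 0.0468, adjusted p = 0.033, edgeR). NPTX2, a secreted neuronal pentraxin, had 37.5, 31.2, 21.8 and 21.8 CPM against 23.6, 26.9, 17.8 and 20.3 CPM. Its level differed between batches in the control as well, the pooled groups overlapped, and the log2 fold change of -0.33 (adjusted p = 0.0433) was -0.45 in batch 1 and -0.19 in batch 2. AC015813.6, a transcript annotated as still to be experimentally checked, was at 19.9 to 26.1 CPM against 26.5 to 28.5 CPM (log2 fold change -0.32, adjusted p = 0.0382).

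SNAP25, a synaptic vesicle fusion protein, had the largest fold of all called genes at a low level, with 1.91, 1.50, 1.88 and 2.13 CPM in the control and 2.66, 2.50, 4.63 and 5.17 CPM after ND5 silencing. The groups did not overlap, and both ND5 libraries of batch 2 were higher than those of batch 1. Its log2 fold change was 0.98 (SE 0.179, adjusted p = 0.00162, edgeR), with 0.60 in batch 1 and 1.28 in batch 2. MAP2, which binds dendritic microtubules, had 8.74, 8.46, 9.30 and 7.91 CPM against 13.3, 13.5, 12.5 and 13.2 CPM, a 1.53-fold rise (log2 fold change 0.61, SE 0.102, adjusted p = 0.000332). EML2, another microtubule-associated protein, was at 29.2 to 41.3 CPM against 25.2 to 27.7 CPM (log2 fold change 0.36, SE 0.0736, adjusted p = 0.0125).

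Of the higher genes, 3 encode proteins of the extracellular matrix. COL14A1, a fibril-associated collagen, had 113, 108, 112 and 121 CPM in the control and 133, 128, 138 and 142 CPM after ND5 silencing (log2 fold change 0.25, SE 0.0458, adjusted p = 0.00136, edgeR). TNC, or tenascin C, rose 1.33-fold, from 85.6, 94.3, 89.3 and 74.0 CPM to 125, 121, 112 and 99.5 CPM (adjusted p = 0.0367). CCDC80, a secreted matrix protein, stood at 16.8 to 19.4 CPM against 11.4 to 15.8 CPM (log2 fold change 0.46, SE 0.0949, adjusted p = 0.0116). None of the 3 had overlapping groups.

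Membrane and signalling proteins made up most of the other higher genes. SLC44A2, a choline transporter-like protein, had 62.6, 57.2, 67.0 and 66.8 CPM in the control and 74.9, 68.4, 88.4 and 85.3 CPM after ND5 silencing (log2 fold change 0.32, SE 0.0544, adjusted p = 0.000614, edgeR). CD63, a tetraspanin of late endosomes and lysosomes, lay at 217 to 265 CPM against 166 to 214 CPM (log2 fold change 0.30, adjusted p = 0.0205). RHOBTB1 was at 47.7 to 52.9 CPM against 35.6 to 44.0 CPM (log2 fold change 0.29, adjusted p = 0.00884). STAT6, the transcription factor of interleukin-4 signalling, had 6.83 to 7.85 CPM in the control and 8.55 to 11.3 CPM after ND5 silencing (log2 fold change 0.50, adjusted p = 0.0393). EVC, a primary cilium protein of hedgehog signalling, was at 23.9 to 24.8 CPM against 17.1 to 22.4 CPM (log2 fold change 0.37, adjusted p = 0.0459). In these 5 genes the highest control library stayed below the lowest ND5 library.

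The last 3 higher genes act in splicing, in nuclear RNA bodies and in detoxification. SF3B3, a core subunit of the SF3b splicing complex, had 405, 408, 429 and 420 CPM in the control and 496, 506, 509 and 461 CPM after ND5 silencing (log2 fold change 0.25, SE 0.0405, adjusted p = 0.000291, edgeR). MALAT1, a nuclear-retained long noncoding RNA, had 26.2, 25.7, 40.6 and 44.1 CPM against 34.0, 35.8, 62.7 and 70.9 CPM. The batches differed in both groups, so the pooled groups overlapped while those within each batch did not, and the log2 fold change of 0.55 (adjusted p = 0.0248) was 0.42 in batch 1 and 0.66 in batch 2. HAGH, which hydrolyses the glutathione adduct formed from methylglyoxal, had 43.5, 38.2, 35.7 and 31.4 CPM against 47.0, 55.2, 40.2 and 44.0 CPM, again overlapping only across batches (log2 fold change 0.32, adjusted p = 0.0393).

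**Figure D2:**
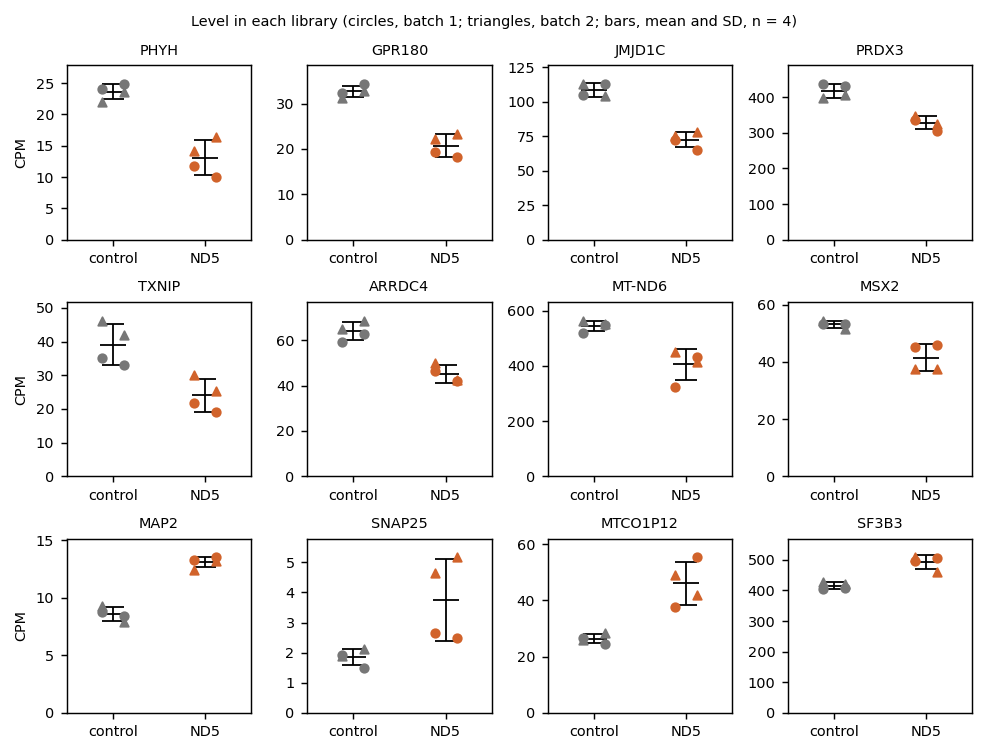
CPM of 12 called genes in each library of the control (grey) and of ND5 silencing (orange), with circles for batch 1, triangles for batch 2, and bars for the mean and SD of 4 libraries, on axes that start at 0. The 2 groups do not overlap in any of these panels, and SNAP25 shows the widest spread among its ND5 libraries, from 2.50 to 5.17 CPM.

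The calls differed in how they held across fits. With no batch term 11 genes kept their call, namely PHYH, JMJD1C, ARRDC4, GPR180, ASAP1, PRDX3, MTCO1P12, SF3B3, MT-ND6, MAP2 and RHOBTB1, and the other 21 lost it. With each of the 8 libraries left out in turn, 17 genes were called in every fit, namely the 11 lower genes PHYH, TXNIP, JMJD1C, ARRDC4, GPR180, RDH10, ASAP1, PRDX3, MT-ND6, MSX2 and MED31, and the 6 higher genes MTCO1P12, SF3B3, MAP2, SLC44A2, COL14A1 and SNAP25. Of these 17, TXNIP, RDH10, MSX2, MED31, SLC44A2, COL14A1 and SNAP25 were among those lost with no batch term. PCNA was called in none of the 8 fits, with adjusted p up to 0.153. SLC39A9 was called only without ND5 replicate 3, and STAT6 and NPTX2 only without ND5 replicate 4, with adjusted p up to 0.227, 0.163 and 0.215. MALAT1 kept its call only without ND5 replicate 1 or control replicate 1 (adjusted p up to 0.142), TNC only without ND5 replicate 4 or control replicate 3 (0.202), and HAGH only without ND5 replicate 3 or control replicate 1 (0.28). HOXB9 was called without ND5 replicate 1 or 2 or control replicate 3 (0.164 otherwise at most), AC015813.6 without ND5 replicate 1 or 3 or control replicate 1 (0.221), and EVC without ND5 replicate 3 or 4 or control replicate 3 (0.23). EML2, BRD2 and CD63 were called in 4 fits, and each lost its call without control replicate 3, control replicate 4 and a pair of ND5 libraries, which were replicates 2 and 4 for EML2, 3 and 4 for BRD2, and 2 and 3 for CD63, with adjusted p up to 0.133, 0.13 and 0.195. RHOBTB1 was lost without ND5 replicate 2 or control replicate 3 (adjusted p up to 0.131), and CCDC80 without ND5 replicate 2 or control replicate 4 (adjusted p up to 0.172).

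Just outside the threshold stood 10 genes whose values are given with no claim of change. ANXA1, MYH14, DTYMK, TANC1, AARS and LAMB1 had positive log2 fold changes, from 0.20 for LAMB1 to 0.46 for ANXA1. ANKRD10, CHKA, DDX56 and PKNOX1 had negative ones, from -0.30 for CHKA to -0.16 for DDX56. Their adjusted p-values ran from 0.0526 to 0.0711, beside 0.0468 for SLC39A9, the last gene inside. With the replicate block all of them except PKNOX1 passed.

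The next comparison asked which of these differences set ND5 silencing apart from the other 10 treatments. ND5 libraries differed from the mean of those treatments in 157 of 20272 genes (0.774%), 97 higher and 60 lower. With the replicate block there were 266. The same ND5 libraries enter both comparisons, so the second is not an independent repeat of the first. Of the 32 genes called against the control, 20 were also called here, and 31 had the same sign, the exception being CD63 (log2 fold change -0.01 here). The count of 157 rested strongly on single ND5 libraries and was 74, 83, 93 and 43 without ND5 replicates 1, 2, 3 and 4.

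PHYH again showed the largest difference among the 32, with a log2 fold change of -0.96 (SE 0.0722, adjusted p = 4.13e-14, edgeR). GPR180 (-0.63), MT-ND6 (-0.55), JMJD1C (-0.53), RDH10 (-0.43), ASAP1 (-0.36) and PRDX3 (-0.30) were lower by nearly as much as, or more than, against the control. SNAP25 (0.64), MAP2 (0.58), MTCO1P12 (0.55), EVC (0.38), COL14A1 (0.27) and SF3B3 (0.24) were higher. SNAP25 was also positive against the control in every other treatment, from 0.15 after COX3 silencing to 0.53 after CYTB silencing. MTCO1P12 had a median of 0.37 over the other treatments against the control, with -0.85 after COX1 silencing as the lowest. The others of the 20 were MALAT1, CCDC80, RHOBTB1, MED31, MSX2, SLC39A9 and BRD2. Of these, CCDC80, MED31, MSX2 and BRD2 had the same sign against the control in every other treatment as after ND5 silencing. For each of JMJD1C, GPR180, RDH10, ASAP1 and PRDX3, no other treatment was further from the control than -0.17. SLC44A2, EML2, CD63, HAGH, TXNIP, ARRDC4, HOXB9, PCNA, NPTX2, TNC, STAT6 and AC015813.6 did not pass this test. EML2, for example, lay between 0.18 and 0.53 in the other treatments, against 0.36 after ND5 silencing.

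**Figure D3:**
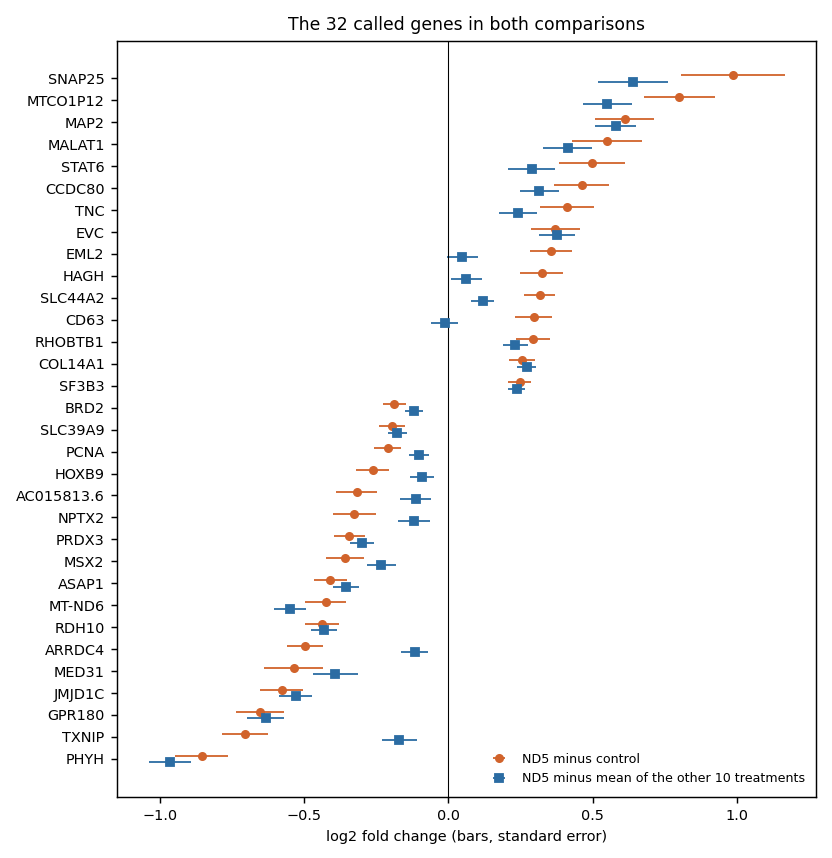
Log2 fold change with its standard error for the 32 called genes, from ND5 silencing minus the control (orange circles) and minus the mean of the other 10 treatments (blue squares). PHYH stands at -0.85 and -0.96, whereas TXNIP moves from -0.70 to -0.17 and CD63 from 0.30 to -0.01.

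Among mtDNA-encoded mRNAs, 4 of 13 differed from the mean of the other treatments. MT-ND6 and MT-ND5 were lower, as given above, while MT-CO1 (log2 fold change 0.29, SE 0.0491, adjusted p = 0.000494) and MT-CYB (0.17, SE 0.0448, adjusted p = 0.0489) were higher. The mean of the other treatments includes COX1 silencing, in which MT-CO1 stood at -1.33, and CYTB silencing, in which MT-CYB stood at -0.33, both against the shared control.

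The genes that fell were compared with the morpholino's target, letter by letter, after their values were seen. PHYH, JMJD1C, GPR180 and PRDX3 hold the same 8 letters, CCATGCAC, that the target holds near its start, and RDH10 and ASAP1 hold them too. Below are the 23 bases of each transcript that align with the target without gaps, with the run identical to the target in capitals, read from GENCODE release 29 in GRCh38.
PHYH: ggCCATGCACACaatgttgataa
JMJD1C: tgCCATGCACACTcttagggaaa
GPR180: acCCATGCACAtgattttaaagg
PRDX3: tgCCATGCACctgctgtcaccca

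All 4 stretches lie in coding sequence. Those of RDH10 and ASAP1, whose longest runs were 11 and 10 bases, were not located and are not shown. The PHYH stretch is in exon 5 of 9 of the transcript PHYH-203 (chr10:13291849-13291871, reverse strand), and 14 of its 23 bases equal the target's. That of JMJD1C is in exon 15 of 26 (chr10:63193431-63193453, reverse strand), with 14 equal bases and a run of 11. In GPR180 it is in exon 4 of 9 (chr13:94619244-94619266, forward strand), with 15 equal bases and a run of 9. The PRDX3 stretch, with 12 equal bases and a run of 8, is in exon 3 of 7 (chr10:119174562-119174584, reverse strand).

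Most genes that hold these letters were not called. The 8-base run occurs, on the sense strand of at least 1 annotated transcript, in 1353 of the 20263 tested genes with a transcript in the reference (6.68%). The median log2 fold change of those 1353 genes was 0.00, as over all genes. Of the 17 called lower, 6 hold it, and of the 15 called higher 1 does (EVC). The run was taken from the matches of PHYH, JMJD1C, GPR180 and PRDX3, so their part in that 6 was fixed by the choice. These counts therefore cannot test whether the run goes with lower values. Runs of 8 bases or more, from any part of the target, occur in 8345 tested genes (41.2%). Those include 8 of the 17 called lower and 11 of the 15 called higher. TXNIP, ARRDC4, MED31, MT-ND6, HOXB9 and PCNA share no run of 7 bases or more with the target. Runs of 11 bases or more occur in 143 tested genes (0.706%), among them the higher genes SF3B3 and RHOBTB1 beside the lower genes JMJD1C and RDH10, and 28 genes with runs of 12 or more include none that was called. The longest matches outside mtDNA were those of FMN2, with 16 bases (log2 fold change -0.10, SE 0.0937, adjusted p = 0.797), and GPLD1, with 14 (-0.22, SE 0.116, adjusted p = 0.573). Introns were not searched, since only transcripts were at hand, and a match is a description of letters, not of binding.

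Nuclear partners of ND5 were then followed through lists that were chosen with earlier results of these data known. Of 37 nuclear complex I subunits, none passed the test. At an unadjusted p under 0.05, 7 were higher and 0 lower, beside 4.78% higher and 4.53% lower over all genes, and the median log2 fold change was 0.07. The median was 0.00 in batch 1 and 0.11 in batch 2. Among members with a mean of at least 10 CPM, from which the examples in each list were taken, NDUFS6, a subunit of the matrix arm, had the highest value, 0.37 (SE 0.109, adjusted p = 0.173), and NDUFS7, an iron-sulfur subunit, the lowest, -0.10 (SE 0.075, adjusted p = 0.727). Of the 6 subunits that assemble with ND5 in the distal membrane module, NDUFB8 was at 0.20, NDUFB9 at 0.17, NDUFB2 at 0.11, NDUFB3 at 0.07, NDUFB7 at 0.02 and NDUFAB1 at -0.08, and none passed the test. Of 20 assembly factors none was called, and NDUFAF8 (0.23) and NDUFAF4 (-0.14) had the values farthest apart. At an unadjusted p under 0.05 the assembly factors held 3 higher and 0 lower, and DESeq2 called no member of these 3 lists.

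The other respiratory complexes and the mitochondrial expression machinery gave no call. Of 41 subunits of complexes II to V, ATP5ME of ATP synthase was highest of those examined at 0.55 (SE 0.148, adjusted p = 0.125) and SDHD of complex II lowest at -0.20, with a median of 0.01. The 82 mitochondrial ribosomal proteins had a median of 0.00 and the 79 cytosolic ones 0.04. The 42 factors of mtDNA replication, transcription and RNA handling had a median of -0.04, and FASTKD5, which processes noncanonical junctions of mitochondrial transcripts, was at -0.22 (SE 0.0549, adjusted p = 0.0881). With the replicate block FASTKD5 passed the test (adjusted p = 0.0289). Of 23 mitochondrial chaperones and proteases, LONP1 was at 0.14 and OMA1 at -0.11, with no call. At an unadjusted p under 0.05 the subunits of complexes II to V held 2 higher and 2 lower, the mitochondrial ribosomal proteins 4 and 2, the cytosolic ones 5 and 1, the mtDNA factors 0 and 4, and the chaperones and proteases 2 and 0. Over all genes tested, 4.78% were higher and 4.53% lower at that p. Of all members of these lists, DESeq2 called FASTKD5 alone.

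The lists of metabolic and stress genes held 1 call, that of PHYH. The 41 genes of the ATF4 integrated stress response, which many mitochondrial defects are known to induce, had a median of -0.01 and no call. Within it, AARS, an alanyl-tRNA synthetase, was at 0.21 (adjusted p = 0.0711) and passed with the replicate block (adjusted p = 0.0436), while SESN2 was at -0.21 (adjusted p = 0.149). The 24 glycolysis and lactate genes had a median of 0.03, with PDK1, which inhibits pyruvate dehydrogenase, at 0.26 (SE 0.0784, adjusted p = 0.192) and LDHB at 0.21. The 21 genes of the tricarboxylic acid cycle (median 0.02), the 11 of NADH shuttles (0.06), the 20 NRF2 targets (0.02), the 25 of cholesterol synthesis (0.01) and the 25 interferon response genes tested (-0.01) had no call either. Among 42 peroxisomal and branched fatty acid genes PHYH was the 1 called, beside 0.0839% of all genes called lower, and the median was 0.00. PECR, another peroxisomal enzyme, was at 0.27 and SLC27A2, a very long chain acyl-CoA synthetase, at -0.18, and neither passed. The number of higher and lower members at an unadjusted p under 0.05 was 3 and 3 for the ATF4 list, 7 and 1 for glycolysis, 1 and 0 for the tricarboxylic acid cycle, 1 and 0 for the shuttles, 0 and 3 for NRF2 targets, 2 and 3 for cholesterol synthesis, 2 and 2 for the interferon list, and 3 and 2 for the peroxisomal list. The shares at that p over all genes tested were 4.78% higher and 4.53% lower. DESeq2 called AARS and PHYH among the members of these lists and no other.

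Of 38 neuronal cytoskeleton and synapse genes tested, MAP2 and SNAP25 were called higher, beside 0.074% of all genes, and the median was 0.02. This list too was chosen with earlier results known, so its calls are no result about neuronal genes as a class. At an unadjusted p under 0.05 the list held 2 higher and 3 lower. INA, a neuronal intermediate filament, was at -0.22 (SE 0.0566, adjusted p = 0.0881). The lists of proliferation genes, p53 targets and immediate early genes had negative medians. Of 24 proliferation genes, PCNA was called lower, beside 0.0839% of all genes, and the median was -0.05. At an unadjusted p under 0.05, 7 of the 24 were lower and 0 higher. Over all genes tested, 4.53% were lower and 4.78% higher at that p, the share to set beside each such count in this paragraph. TYMS, thymidylate synthase, was at -0.20 (SE 0.0556, adjusted p = 0.127), while MKI67 was at 0.00. Of 24 p53 targets, none was called, 8 had lower and 1 had higher values at an unadjusted p under 0.05, and the median was -0.08, with the death receptor FAS at -0.24 (SE 0.0617, adjusted p = 0.0881). Of 22 immediate early and ERK feedback genes, none was called and 7 had lower values at an unadjusted p under 0.05. Their median of -0.11 came from -0.02 in batch 1 and -0.34 in batch 2, and EGR1, a serum-responsive transcription factor, was at -0.36 (SE 0.0977, adjusted p = 0.125), with -0.15 and -0.60 in the batches. DESeq2 called lower INA, TYMS beside PCNA, EGR1 and 3 p53 targets, namely FAS and, outside the rule for naming, TNFRSF10B and BTG2.

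**Figure D4:**
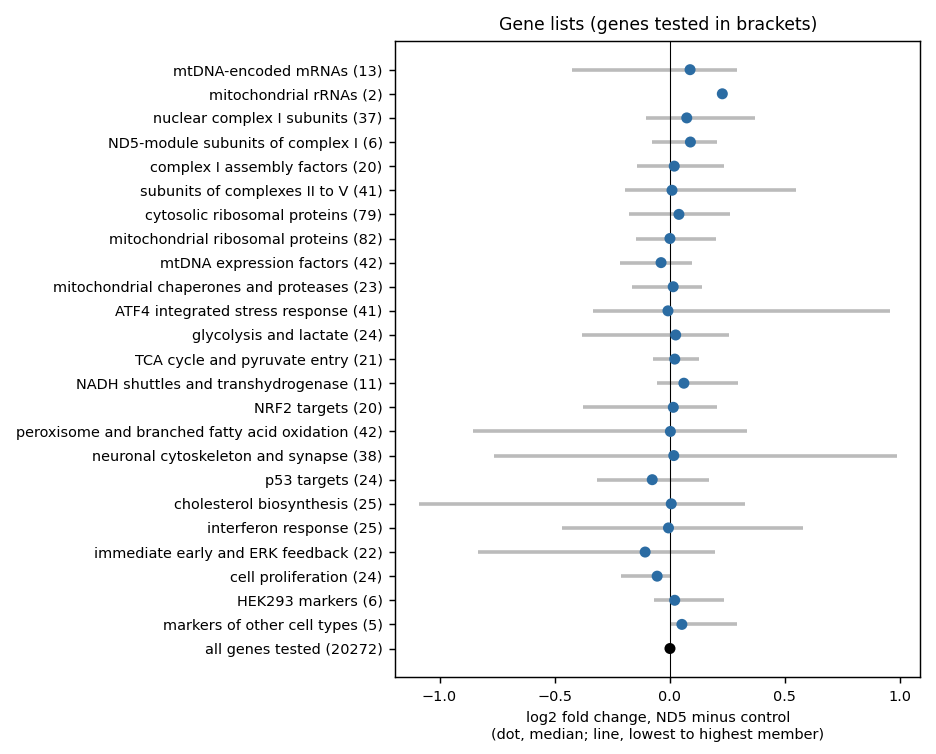
Median (dot) and range from the lowest to the highest member (line) of the log2 fold change in each gene list, with the number of genes tested in brackets and the median of all 20272 genes in black. List medians lie between -0.11 for immediate early genes and 0.23 for the mitochondrial rRNAs.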

How the data were processed

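HEK293T cells were profiled by poly(A)-enriched RNA-seq. The authors deposited raw read counts per gene for 46 libraries of 12 conditions, without normalization, with a gene length in bases that served in 1 alternative. How reads were aligned and assigned to genes, and whether by strand, is not given in the sources used here. The submitters' processing notes name R 4.3.0, DESeq2 1.40.2, limma 3.56.2 and GRCh38.p12. The study's methods describe paired-end reads and the sample records single-end reads. Of 58735 genes, 11381 had no count in any library. All columns of counts were matched to samples through their names, and all 46 libraries entered 1 fit.

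The main model was the quasi-likelihood test of edgeR 4.0.16 in R 4.3.3, with TMM factors and terms for condition and batch, over 20272 genes kept by filterByExpr with a minimum count of 10, with Benjamini-Hochberg adjustment and a threshold of 0.05. The standard error was the log2 fold change divided by the root of F. CPM were computed here with TMM library sizes, and values are given as control replicates 1 to 4, then ND5 replicates 1 to 4. The contrasts were ND5 minus control and ND5 minus the mean of the other 10 treatments. The pipeline was tested on simulated counts. At a simulated log2 fold change of 0.3, 35 of 67 changed genes were called. At 0.6 it was 56 of 67 and at 1 it was 59 of 66, none in the wrong direction. In the same simulation 12 unchanged genes were called. A gene without a call may therefore have changed. Replicates differed by more than sampling noise, so no library was counted again as another. The study's methods call the replicates biological, but the sample records do not say whether they were separate cultures. The p-values therefore measure the spread between these libraries.

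Same-numbered ND5 and control libraries share a batch by the study's methods, and their deviations from the group means correlated at 0.336, 0.652, 0.499 and 0.587 over 10413 genes. Differently numbered libraries of the same batch correlated at 0.329 to 0.535, so these values largely show the batch. The difference between the 2 libraries of a batch correlated between ND5 and control at 0.175 in batch 1 and 0.195 in batch 2. A replicate block was run as an alternative. Other alternatives were DESeq2 1.42.0, no batch term, RLE size factors, library sizes from nuclear genes, no filter, a minimum count of 50, removal of a trend on gene length, only the libraries compared, each batch alone, and leaving out each library. The genes and lists were chosen with earlier results of these data known. Named genes were the 13 mRNAs and 2 rRNAs of mtDNA, all called genes, the 10 next in order of p, the ND5-module subunits, and in each list the called members with the 2 highest and 2 lowest log2 fold changes among members with a mean of at least 10 CPM; not all of the latter are printed. FMN2 and GPLD1 were added after their sequences were searched.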

Additional observations from a re-analysis of the deposited data

Results flagged for a closer look

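Among the called genes and mtDNA transcripts, 4 groups of 4 libraries held 1 library far from the other 3, of 96 groups looked at, and chance marks about 1 group in 20. ND5 replicate 2 had 58.8 CPM of ASAP1, while the other ND5 libraries had 64.0 to 64.5. The same library had 265 CPM of CD63, against 217 to 223 in the others. ND5 replicate 4 had 8.55 CPM of STAT6, while the others reached up to 11.3, and 75.2 CPM of SLC39A9, against 85.5 to 87.4. Each of these 4 genes kept its direction in both batches.

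The effect of ND5 silencing differed from the mean of the other 10 treatments, by the edgeR test of the difference, in 20 of the 32 genes called against the control. The log2 differences of the lower genes were -0.96 for PHYH, -0.63 for GPR180, -0.55 for MT-ND6, -0.53 for JMJD1C, -0.43 for RDH10, -0.39 for MED31, -0.36 for ASAP1, -0.30 for PRDX3, -0.23 for MSX2, -0.18 for SLC39A9 and -0.12 for BRD2. Those of the higher genes were 0.64 for SNAP25, 0.58 for MAP2, 0.55 for MTCO1P12, 0.41 for MALAT1, 0.38 for EVC, 0.31 for CCDC80, 0.27 for COL14A1, 0.24 for SF3B3 and 0.23 for RHOBTB1.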

How the results depend on the processing

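Of the 32 calls against the control (15 higher, 17 lower), the count was 11 (4 and 7) with no batch term, 118 (82 and 36) with no filter, 74 (44 and 30) with only the libraries compared, 102 (52 and 50) with DESeq2, 13 (4 and 9) in batch 1 alone and 6 (2 and 4) in batch 2 alone. With the stricter filter 23 were higher. With the replicate block it was 53 (29 higher), and the block ended no call. Leaving out 1 library gave 18 to 42 calls, 6 to 18 higher and 11 to 24 lower. The count against the other 10 treatments, 157, was 37 with no batch term, 266 with the replicate block, 274 with no filter, 94 without the trend on gene length, 34 in batch 1, 25 in batch 2, 318 with DESeq2, and 43 to 160 with 1 library left out. MT-ND5 stayed negative, from -0.27 to -0.10 with 1 library left out, and was called with no filter (log2 fold change -0.18, adjusted p = 0.00266). The called mtDNA mRNAs numbered 4 with no filter, 2 with only the libraries compared, 0 in batch 2 alone and 1 with any library left out. With only the libraries compared, 29 of the 32 remained and SLC39A9, NPTX2 and AC015813.6 were lost, and with no filter or with RLE size factors 31 remained and SLC39A9 was lost. No called gene changed direction under any alternative. Of the 32, DESeq2 called 31 and gave no adjusted p for SNAP25. The causes were not tested. Each batch alone sets 2 libraries against 2, and low genes such as SNAP25 rest on few counts.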
